A study of Mus musculus with 20 samples.

Results

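The 10 genes described here handle heme and reactive oxygen: Hmox1, Blvra, Blvrb, Nqo1, Gclm, Srxn1, Txnrd1, Gpx1, Cat and Slc7a11. They were chosen by symbol from the 32081 genes of the deposited expression table, all 10 had values in both deposited tables, and all 10 were among the 16848 genes tested. Their RNA was measured in the aortic endothelium of 20 female Apoe-/- mice (strain B6.129P2-Apoetm1Unc/J) on regular chow, all with 5/6 nephrectomy, a surgery that removes most kidney tissue and leaves chronic kidney disease. Each of the 5 groups held 4 mice, operated at 9 weeks of age, treated once behind the eye 7 weeks later and collected 1 week after treatment. The dual group received HDL (4 mg) with LNA92a and LNA489 at 20 mg/kg each, 40 mg/kg of LNA in total. The LNA92a group and the LNA489 group received HDL (4 mg) with 20 mg/kg of the one inhibitor, the HDL group received HDL (4 mg) alone, and the saline group received saline. LNA92a and LNA489 are antisense strands, built with locked nucleic acids, against miR-92a and miR-489, and the design asks what each inhibitor, both together and HDL alone do to the vessel lining. All groups share the Apoe deletion and the nephrectomy, and no group without them was measured here. A library's name joins its group and the animal's number (HDL 11 is animal 11 of the HDL group).

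Heme oxygenase, encoded by Hmox1, opens the heme ring and releases iron, carbon monoxide and biliverdin. The biliverdin reductase encoded by Blvra turns that biliverdin into bilirubin, a scavenger of oxidants, and Blvrb encodes a further biliverdin reductase. The transcription factor NRF2, held back by KEAP1 in resting cells, turns on Hmox1, Nqo1, Gclm, Srxn1, Txnrd1 and Slc7a11 through antioxidant response elements, while BACH1 represses Hmox1 until heme displaces it. In atherosclerotic vessels these enzymes are known both from endothelial cells and from macrophages that take up red cells and lipid.

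Assigned reads numbered 11.6 to 21.4 M per library. Every one of the 14 endothelial transcripts listed (Pecam1, Cdh5, Vwf and others) had reads in all 20 libraries, with summed FPKM of 79.2 to 2268. The 18 macrophage and monocyte transcripts (Adgre1, Cd68, C1qa and others) summed to 847 to 13850 FPKM and adipocyte transcripts to 77.8 to 5668 FPKM, so the material was not endothelium alone. Libraries dual 10 and Saline 2 stood apart by transcripts of the adrenal cortex, at 1709 and 2156 summed FPKM against 2.77 to 22.9 FPKM in the other libraries. HDL 11 stood apart by B and plasma cell transcripts, at 5115 summed FPKM against 66.1 to 829.7 FPKM in the others, and on the variance-stabilized scale it was the lowest HDL library for Hmox1, Nqo1, Gclm, Srxn1, Txnrd1 and Gpx1. Libraries LNA92a 5, LNA92a 17 and LNA92a 18 had 18.2% to 22.4% of their reads on 18S ribosomal RNA, against 3.25% to 12.2% in the others, which lowers FPKM of all other genes there. Apoe reads were not used as a check of the genotype.

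The sequences the treatments and the pathway act through are shown first, because they define what the inhibitors target and which members carry a matching site. The mature strands of the targeted microRNAs (RefSeq, GRCm38.p6) are given with the seed, bases 2 to 8, in capitals.
mmu-miR-92a-3p: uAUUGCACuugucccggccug
mmu-miR-489-3p: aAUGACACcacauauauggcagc
The first was read at Mir92-1, at chr14:115044476-115044496 on the plus strand, and the second at Mir489, at chr6:3721922-3721944 on the minus strand. Other loci that may encode the same mature strands were not looked up. The seeds differ. The letters that pair with the seeds, GTGCAAT for miR-92a-3p and GTGTCAT for miR-489-3p, were searched in the longest annotated 3′ UTR of each member (GENCODE M21, GRCm38). Gclm, the regulatory subunit of glutamate-cysteine ligase, held 1 match to each seed, and Slc7a11, the cystine importer, held 1 match to the miR-489-3p seed. The other 8 members held no match to either. The sites are printed on the gene's strand with the seed match in capitals.
Gclm, miR-92a-3p site, chr3:122269548-122269570: agaattaaatcacttGTGCAATt
Gclm, miR-489-3p site, chr3:122270408-122270430: tgctttgccaggataGTGTCATg
Slc7a11, miR-489-3p site, chr3:50366638-50366660: agaccaaaacattctGTGTCATa
Both UTRs are long, 4335 bases in Gclm and 7364 bases in Slc7a11. Of the 1350 genes with a 3′ UTR within 20% of the length of Gclm's, 18.4% held the miR-92a-3p match and 26.5% the miR-489-3p match, and of the 368 genes near the length of Slc7a11's, 42.9% held the miR-489-3p match. A match of letters is a description and not a shown target.

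The promoter table (RefSeq, GRCm38.p6, 250 bases before to 50 after each start) held 12 windows of 9 members. It held no window of Hmox1, whose promoter was therefore not searched. They were searched on both strands for the antioxidant response element core TGACNNNGC, through which NRF2 is known to act, and for the amino acid response element TGATGNAA, through which ATF4 is known to act on Slc7a11. Of the 12 windows, 1 each of Blvra, Gclm, Srxn1 and Txnrd1 held the core, against 12.4% of 32851 promoter windows in all. The share of genes with a core in any window was not computed. The cores of Blvra, Gclm and Txnrd1 lie before the start and are printed on the gene's strand with the core, here on the opposite strand, in capitals.
Blvra, chr2:127070598-127070626, core from base -49: cacgggaattGCTCGGTCAaggctccgcc
Gclm, chr3:122245413-122245441, core from base -134: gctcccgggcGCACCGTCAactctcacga
Txnrd1, chr10:82859104-82859132, core from base -92: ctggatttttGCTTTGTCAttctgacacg
In Srxn1 the core starts at base 29 after the start. In Txnrd1 the core lies in 1 of 3 windows, that of an alternative start. The amino acid response element was found among the members in Slc7a11, from base -66 on the gene's strand and from base -47 on the opposite strand, against 3.97% of all windows.
Slc7a11, chr3:50443662-50443689, element from base -66: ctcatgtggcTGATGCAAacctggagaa
None of these letters were found in the windows of Blvrb, Nqo1, Gpx1 and Cat, which says nothing about sites elsewhere.

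Per length of transcript, the peroxide-removing enzymes were the most abundant members. Gpx1, which reduces peroxides with glutathione, averaged 320 FPKM over the 20 libraries, and Cat, the catalase of peroxisomes, averaged 184 FPKM. Hmox1 averaged 54.5 FPKM and Txnrd1, the cytosolic thioredoxin reductase, 30.6 FPKM. Srxn1, which repairs overoxidized peroxiredoxins, averaged 13.9 FPKM, Blvrb 13.5 FPKM, Blvra 10.1 FPKM and Gclm 8.18 FPKM. Nqo1, a quinone reductase, at 3.44 FPKM and Slc7a11 at 1.93 FPKM were the lowest, with 36 to 184 reads for Nqo1 and 36 to 1174 reads for Slc7a11. Neighbours in this order overlapped widely between libraries. The spread over libraries was widest for Hmox1, with 26.3-fold between its lowest and highest library, and for Slc7a11 with 25.8-fold, and narrowest for Blvrb with 3.17-fold and Gclm with 3.19-fold. LNA489 13 was the highest of the 20 libraries for Hmox1, Txnrd1, Gpx1 and Slc7a11. Gclm shares exon sequence with the opposite-strand transcript Gm17494 and the pseudogene Gm6061, so its level is uncertain, while the other 9 members share no exon with another annotated gene.

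**Figure D1:**
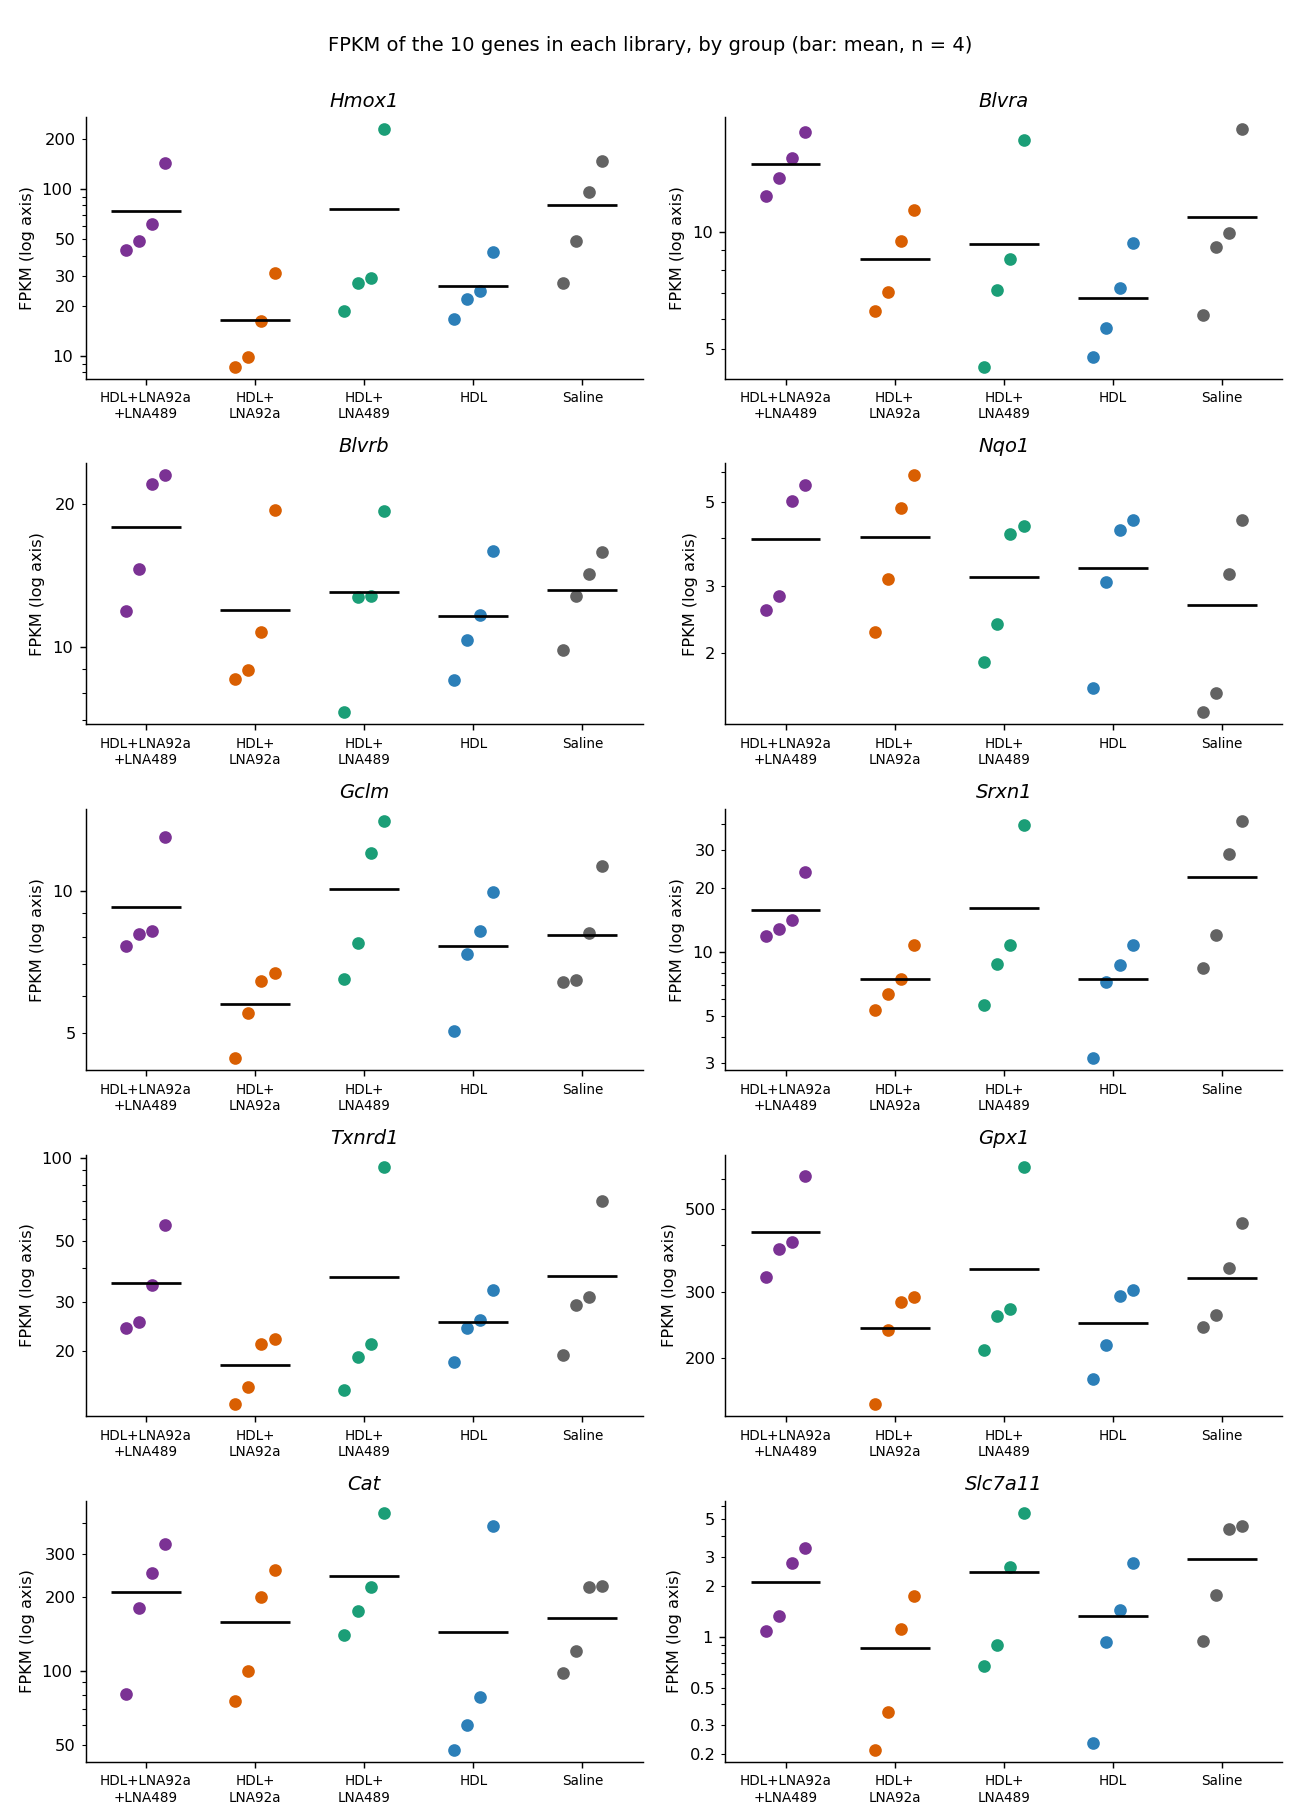
FPKM (log axis) of the 10 genes in each of the 20 libraries, with the groups on the horizontal axis, points for libraries and bars for the mean of 4. For Hmox1 the lowest dual library (43.4 FPKM) lies just above the highest HDL library (42.3 FPKM), and LNA489 13 stands at 228 FPKM, far above the other LNA489 libraries.

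Whether the treatments changed the 10 genes was read from limma fits on the deposited variance-stabilized log2 values of all 16848 genes, with Benjamini-Hochberg adjusted p-values and a threshold of 0.05. None of the 10 members changed at that threshold in any comparison, and neither did any other gene: 0 of 16848 (0%) were called in dual against HDL, LNA92a against HDL, LNA489 against HDL, HDL against saline, dual against saline, the F-test over the 5 groups or the non-additive contrast (dual minus both single inhibitors plus HDL). At an unadjusted p under 0.05 there were 416 genes (2.47%) in dual against HDL, 595 (3.53%) in LNA92a against HDL and 638 (3.79%) in LNA489 against HDL. There were 281 (1.67%) in HDL against saline, 177 (1.05%) in dual against saline, 283 (1.68%) in the F-test and 530 (3.15%) in the non-additive contrast. Voom fits on recovered reads, with 2 kinds of scaling factors, also called 0. The differences that follow are therefore values, not shown changes.

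Hmox1, the heme-degrading enzyme, stood at 43.4, 48.7, 61.7 and 142 FPKM in the dual group, 8.67, 9.83, 16.4 and 31.3 FPKM in the LNA92a group, and 18.7, 27.5, 29.3 and 228 FPKM in the LNA489 group. It stood at 16.7, 21.9, 24.6 and 42.3 FPKM in the HDL group and at 27.4, 48.9, 96.0 and 147 FPKM in the saline group. All dual libraries were above all HDL libraries, by a narrow margin, while the LNA489 and saline groups overlapped every other group. The log2 difference was 1.28 ± 0.61 (SE) in dual against HDL (unadjusted p = 0.0485, adjusted p = 0.998 in limma) and -1.37 ± 0.61 in HDL against saline (unadjusted p = 0.0366, adjusted p = 1.00 in limma). The difference in LNA489 against HDL was 0.81 ± 0.61 and dropped to 0.08 without LNA489 13. In LNA92a against HDL it was -0.33 ± 0.61.

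Blvra and Blvrb encode biliverdin reductases, and Blvra sits downstream of Hmox1. Blvra stood at 12.4, 13.8, 15.5 and 18.1 FPKM in the dual group, against 4.77, 5.69, 7.18 and 9.40 FPKM in the HDL group. All dual libraries lay above all HDL libraries on the FPKM scale, but on the variance-stabilized scale the ranges overlapped through HDL 4. The log2 difference in dual against HDL was 0.99 ± 0.32 (unadjusted p = 0.00675, adjusted p = 0.998 in limma). In LNA92a against HDL it was 0.68 ± 0.32 and in HDL against saline -0.57 ± 0.32. Blvrb, which also reduces flavins, differed less, by 0.51 ± 0.31 in dual against HDL and -0.20 ± 0.31 in HDL against saline, with 7.27 to 23.0 FPKM over all libraries.

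Among the genes of the thioredoxin branch, Srxn1 stood at 11.9, 12.9, 14.2 and 23.7 FPKM in the dual group, 3.16, 7.22, 8.67 and 10.8 FPKM in the HDL group and 8.41, 12.0, 28.7 and 41.3 FPKM in the saline group. The dual libraries lay above the HDL libraries in FPKM but not, through HDL 4, on the variance-stabilized scale, and the highest saline value belonged to Saline 2, one of the libraries with adrenal transcripts. In HDL against saline the log2 difference was -1.34 ± 0.51 (unadjusted p = 0.0161, adjusted p = 1.00 in limma) and without Saline 2 it was -0.92. In dual against HDL it was 0.97 ± 0.51 and without HDL 11 it was 0.59. Txnrd1, whose product keeps thioredoxin reduced, stood at 24.1, 25.5, 34.5 and 57.3 FPKM in the dual group and 18.3, 24.3, 25.8 and 33.2 FPKM in the HDL group. These ranges overlapped, and the log2 difference was 0.35 ± 0.40 in dual against HDL and -0.43 ± 0.40 in HDL against saline, the second going to -0.15 without Saline 9.

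In the glutathione branch, Gpx1 stood at 330, 390, 408 and 612 FPKM in the dual group, against 177, 218, 294 and 304 FPKM in the HDL group. The groups did not overlap in FPKM and did, through HDL 4, on the variance-stabilized scale. Its log2 difference was 0.74 ± 0.33 in dual against HDL (unadjusted p = 0.0358, adjusted p = 0.998 in limma) and -0.40 ± 0.33 in HDL against saline, the second going to -0.18 without HDL 11. Gclm ranged from 4.42 to 14.1 FPKM over all libraries, with 0.21 ± 0.28 in dual against HDL, 0.04 ± 0.28 in LNA92a against HDL and 0.40 ± 0.28 in LNA489 against HDL. Without HDL 11 these Gclm differences were -0.03, -0.20 and 0.16. Slc7a11 ranged from 0.213 to 5.50 FPKM, with 0.76 ± 0.69 in dual against HDL, 0.75 ± 0.69 in LNA489 against HDL and -1.15 ± 0.69 in HDL against saline. Without HDL 4 these Slc7a11 differences were 0.30, 0.29 and -0.69. These are the members with seed matches, and none of their differences passed the threshold.

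Nqo1 was the member that was higher in the HDL group than in the saline group, by 0.26 ± 0.28 on the log2 scale, with 1.61 to 4.47 FPKM in the HDL group and 1.39 to 4.48 FPKM in the saline group. In LNA92a against HDL it differed by 0.49 ± 0.28. Without HDL 11 these Nqo1 differences were 0.51 and 0.25. Cat stood at 80.6, 179, 251 and 328 FPKM in the dual group and 47.6, 60.1, 78.4 and 389 FPKM in the HDL group. HDL 4 alone was high in the HDL group, and the groups overlapped. The log2 difference of Cat was 0.87 ± 0.68 in dual against HDL, 1.23 ± 0.68 in LNA489 against HDL and 0.95 ± 0.68 in LNA92a against HDL, and without HDL 4 these were 1.64, 1.99 and 1.72. The adipocyte list mean was also higher than in HDL, by 1.04 in dual, 1.46 in LNA489 and 1.97 in LNA92a. An alternative fit of the group differences held the macrophage, endothelial and adipocyte list means as covariates. Over all 20 alternatives, the lowest Cat differences against HDL were 0.20 in dual, 0.44 in LNA489 and 0.12 in LNA92a. With 1 library left out, the lowest were 0.52, 0.82 and 0.61 in the same order. The part of the adipocyte transcripts in the Cat differences was not tested beyond that covariate fit.

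Counted together, all 10 members were higher in dual than in HDL, with a median log2 difference of 0.75 against -0.03 over all genes tested. Without HDL 11, Nqo1 in this comparison went from 0.13 to -0.11 and Gclm from 0.21 to -0.03. Of the members, 9 of 10 were lower in HDL than in saline, with a median of -0.50 against 0.03. Gclm in HDL against saline went from -0.09 to 0.15 without HDL 11. In LNA489 against HDL 9 of 10 were higher (median 0.41) and in LNA92a against HDL 7 of 10 (median 0.38). All 3 inhibitor groups are set against the same HDL libraries. The dual and saline groups differed little in the members, with 6 of 10 higher in dual and a median of 0.15. Of the 10 members, 1 (Hmox1) did not overlap between dual and HDL on the variance-stabilized scale, where 1.88% of all genes tested did not. In FPKM 4 did not (Hmox1, Blvra, Srxn1 and Gpx1), where 1.45% of all genes did not. In LNA92a against HDL, LNA489 against HDL, HDL against saline and dual against saline, 0 members failed to overlap on the variance-stabilized scale, beside 2.22%, 1.54%, 0.973% and 0.962% of all genes in the order given. In FPKM 0 members failed to overlap in these 4 comparisons, beside 5.40%, 0.967%, 0.558% and 0.795% of all genes. The group accounted for 41.6% of the variance of Hmox1, 40.1% of that of Blvra, 38.0% of that of Nqo1, 32.2% of that of Srxn1, 25.6% of that of Gpx1 and 22.8% of that of Slc7a11. It accounted for 17.2% in Blvrb, 17.1% in Cat, 14.9% in Gclm and 12.9% in Txnrd1, beside a median of 16.0% over all genes tested.

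The levels of cell type transcripts are set beside these differences. The macrophage list mean on the log2 scale was 10.95 ± 0.38 in the dual group, 9.74 ± 0.49 in the LNA92a group, 10.24 ± 1.04 in the LNA489 group, 9.96 ± 0.66 in the HDL group and 10.82 ± 0.66 in the saline group (SD, n = 4 each). Dual exceeded HDL by 1.00 (2-sided exact permutation p = 0.0857) and HDL lay 0.86 below saline (2-sided exact permutation p = 0.114), where the smallest p that 4 against 4 allows is 0.0286. Of 45 alternatives for this list mean over the 5 comparisons, 44 left it on the same side of 0.05. Without HDL 3, dual exceeded HDL by 1.29 (2-sided exact permutation p = 0.0286, the smallest that 4 against 3 allows). HDL 3 was the HDL library with the highest macrophage mean, so leaving it out could only widen this difference. All 18 macrophage transcripts were higher in dual than in HDL, and all 18 were lower in HDL than in saline, with 0 of 18 called in either. In LNA92a against HDL, where 7 of 10 members were higher, the macrophage mean differed by -0.21 and 13 of 18 macrophage transcripts were lower. Adipocyte transcripts were higher than in HDL in 11 of 11 in each inhibitor group, with list mean differences of 1.04 in dual, 1.97 in LNA92a and 1.46 in LNA489 (2-sided exact permutation p = 0.514, 0.171 and 0.400). Fibroblast and adventitia transcripts were higher in 10 of 10 in each, and resident macrophage transcripts in 9 of 10 in dual, 9 of 10 in LNA92a and 10 of 10 in LNA489. The part of the cell type transcripts in the member differences was not tested beyond the covariate fits. In bulk RNA, fewer cells of a type and less RNA per cell cannot be told apart.

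With the macrophage list mean as a covariate in the same fit, the Hmox1 difference in dual against HDL was 0.04 ± 0.30 and in HDL against saline -0.30 ± 0.29. Srxn1 went to 0.21 ± 0.44 in dual against HDL and -0.68 ± 0.42 in HDL against saline. Gpx1 went to 0.30 ± 0.30 in dual against HDL and -0.02 ± 0.29 in HDL against saline. Blvra had 0.64 ± 0.33 in dual against HDL and 0.75 ± 0.29 in LNA92a against HDL. Txnrd1 turned to -0.44 ± 0.22 in dual against HDL and 0.25 ± 0.21 in HDL against saline. Cat moved the other way, to 1.49 ± 0.72 in dual against HDL and -1.22 ± 0.70 in HDL against saline. With this covariate too, 0 of 16848 genes were called in every group comparison.

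**Figure D2:**
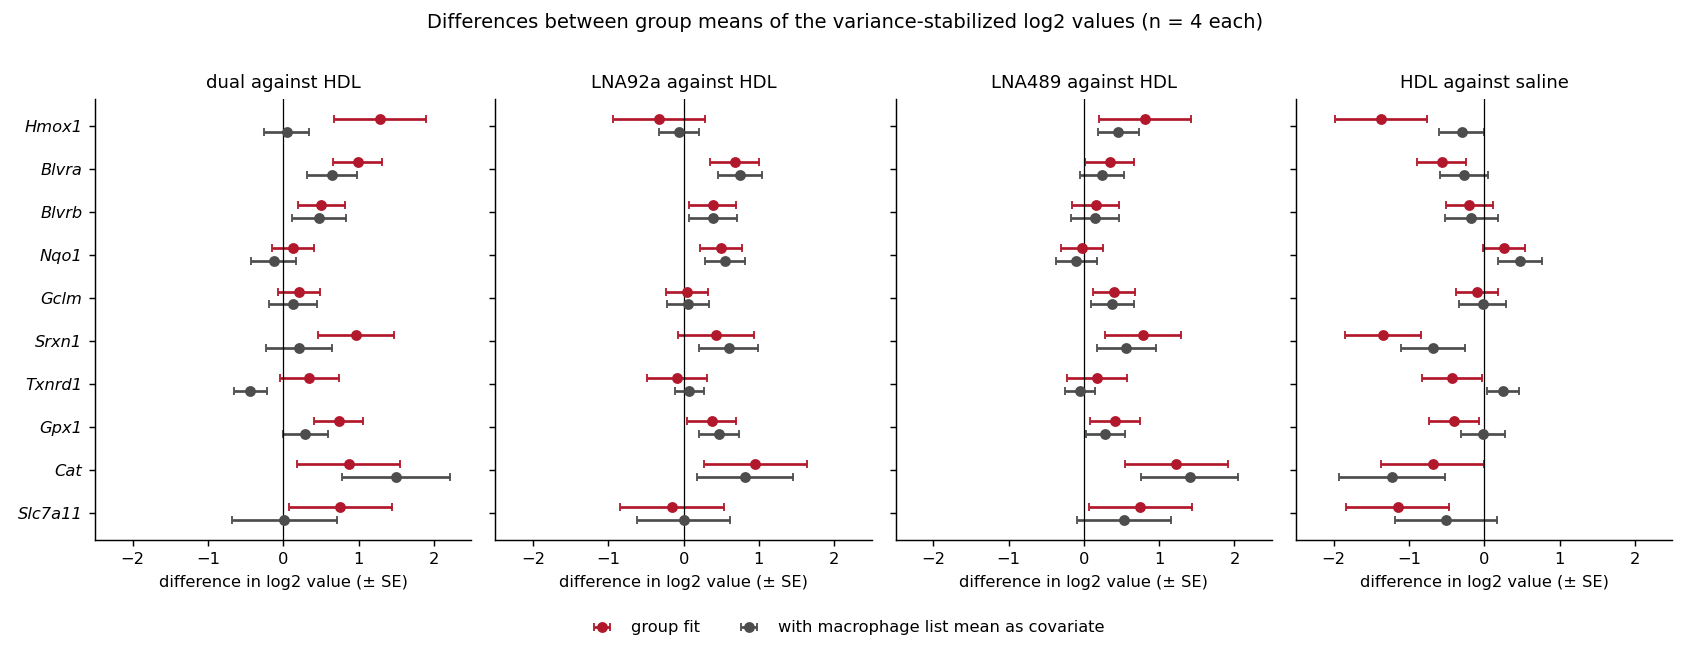
Difference between group means of the variance-stabilized log2 value for each gene in 4 comparisons, with points for the estimate and bars for ± 1 SE, from the fit of 5 group means (red) and from the fit that also holds the macrophage list mean (grey). The Hmox1 estimate lies at 1.28 and 0.04 in dual against HDL and at -1.37 and -0.30 in HDL against saline, and no estimate passed the adjusted threshold.

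Over single libraries, Hmox1 followed the macrophage transcripts most closely of the 10. The slope on the macrophage list mean, in a fit over all 16848 genes that kept the 5 groups, gives the change of a gene's log2 value per log2 unit of the list mean. For Hmox1 it was 1.25 ± 0.14 (SE, adjusted p = 3.03e-05 in limma), for Txnrd1 0.79 ± 0.10 (adjusted p = 0.000103) and for Srxn1 0.76 ± 0.20 (adjusted p = 0.0381). These 3 of 10 members were called higher, against 4.13% of all genes called higher and 4.70% in either direction, 792 genes in all. Without LNA489 13 the count was 236 genes, without HDL 11 it was 1405 and without Saline 24 it was 1554. The other slopes were not called, with 0.45 ± 0.14 for Gpx1 (adjusted p = 0.0801), 0.35 ± 0.16 for Blvra (0.213), 0.75 ± 0.33 for Slc7a11 (0.205), 0.26 ± 0.14 for Nqo1, 0.08 ± 0.15 for Gclm, 0.03 ± 0.17 for Blvrb and -0.63 ± 0.34 for Cat. Both Hmox1 and Txnrd1 were called in all 20 fits that left out 1 library, with adjusted p-values of up to 0.00574 and 0.0248 in limma. Srxn1 was called in 12 of 20 and lost without dual 8, dual 10, LNA489 7, LNA489 13, LNA489 14, LNA489 19, Saline 1 or Saline 9, with an adjusted p of 0.474 without LNA489 13. Gpx1 was called without HDL 4 (0.55, adjusted p = 0.00449). Without both libraries with adrenal transcripts, Srxn1 had a slope of 0.69 (adjusted p = 0.0491).

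As correlations over the 20 libraries, r with the macrophage list mean was 0.93 for Hmox1 (Spearman's rho 0.92, permutation p = 1e-05 for each, the smallest that 100000 permutations can give), and 0.90 without LNA489 13 and Saline 9, the libraries farthest from the median. For Txnrd1 r was 0.88 (rho 0.91) and 0.86 without those libraries, and for Srxn1 0.73 (rho 0.65) and 0.61 without them. With the group means removed r was 0.92 for Hmox1, 0.91 for Txnrd1 and 0.68 for Srxn1. Gpx1 had r = 0.66, Slc7a11 0.60 and Blvra 0.53, and the last pair had 0.44 and 0.39 without the same libraries. Gclm (0.17), Blvrb (0.13), Nqo1 (0.08) and Cat (-0.25) had r near or under 0.2. With the group means removed r was 0.48 for Nqo1, -0.41 for Cat, 0.14 for Gclm and 0.05 for Blvrb, and on log2 FPKM it was 0.35 for Nqo1, -0.18 for Cat, 0.53 for Gclm and 0.44 for Blvrb. Gene and list mean come from the same libraries and share their depth and scaling, and r of the list mean with log2 assigned reads was 0.33 and with the 18S share -0.43.

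**Figure D3:**
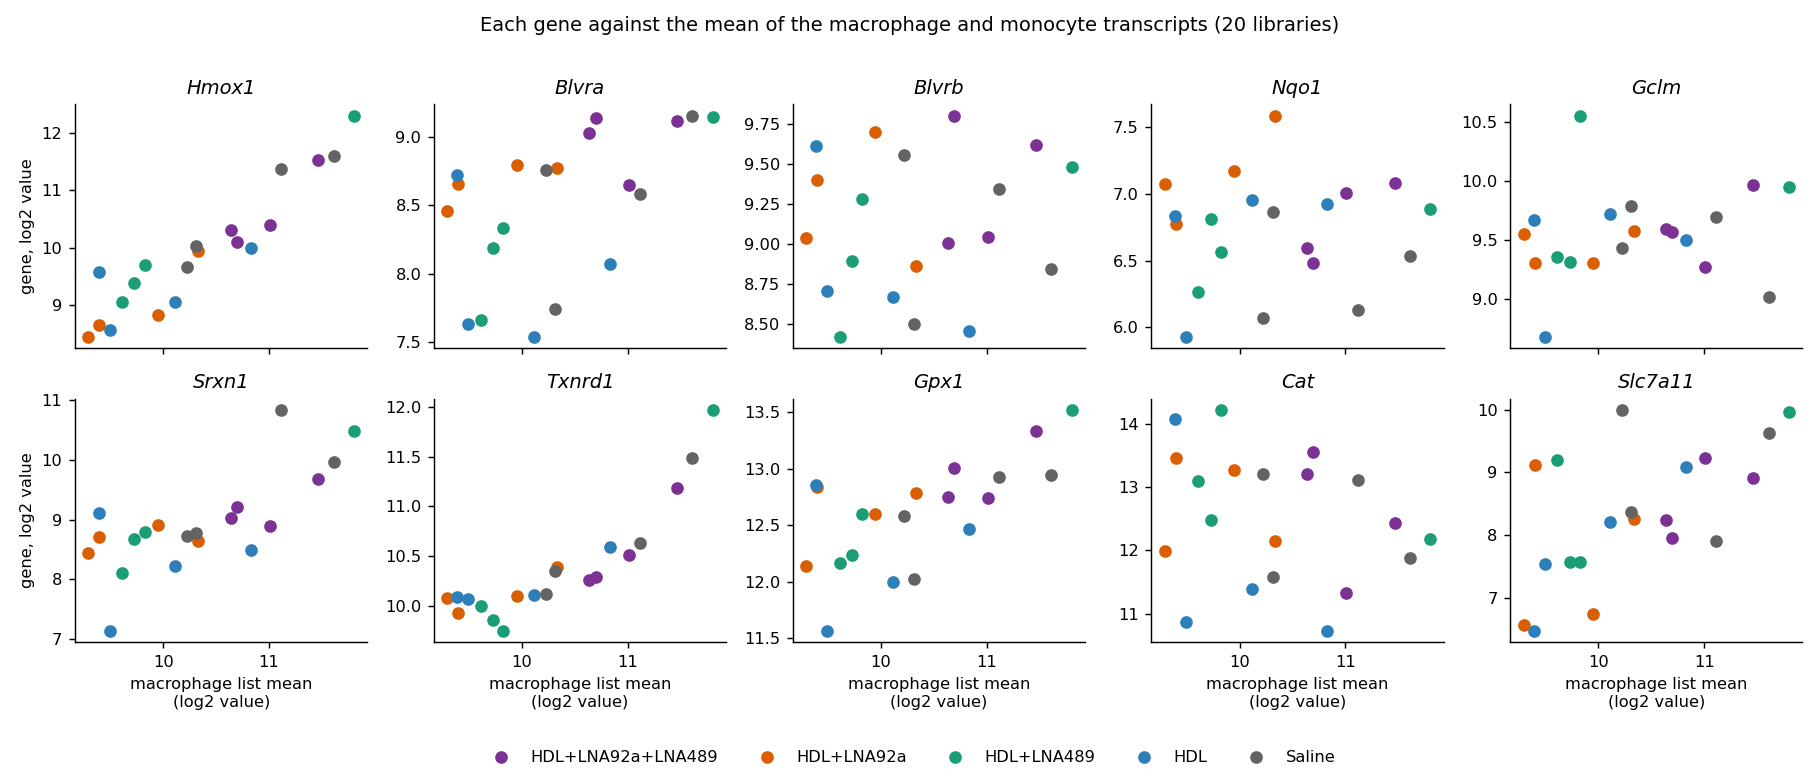
Variance-stabilized log2 value of each gene (vertical axis) against the mean log2 value of 18 macrophage and monocyte transcripts (horizontal axis), with 1 point per library, coloured by group. Hmox1 (r = 0.93) and Txnrd1 (r = 0.88) climb with the macrophage mean across all 5 groups, while Blvrb, Nqo1, Gclm and Cat show no such line.

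The cell type lists were not independent: r of the macrophage mean was -0.50 with the adipocyte mean and 0.37 with the endothelial mean. In a fit with the 3 list means together, the macrophage slope was 1.40 ± 0.16 for Hmox1 (adjusted p = 3.97e-05 in limma), 1.16 ± 0.19 for Srxn1 (0.00111), 0.75 ± 0.12 for Txnrd1 (0.000914), 0.70 ± 0.12 for Gpx1 (0.00176) and 0.60 ± 0.14 for Blvra (0.0158). These 5 of 10 members were called higher, against 3.58% of all genes called higher and 4.56% in either direction. In the same fit the adipocyte slope was called for Cat, at 0.42 ± 0.09 (adjusted p = 0.00325), and for Gclm, at 0.20 ± 0.06 (adjusted p = 0.0203), where 12.6% of all genes were called higher. The called endothelial slopes there, 8.78% of all genes (6.94% higher, 1.84% lower), included 0 of 10 members.

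In either direction, the share of members called on the adipocyte, resident macrophage and endothelial means was under that of all genes. It was 3 of 10 on the adipocyte mean against 38.9% and 2 of 10 on the resident macrophage mean against 39.7%. On the endothelial mean it was 2 of 10 against 28.3%. Called slopes on these means are therefore not particular to the members. Catalase is known to be plentiful in fat, and Cat had r = 0.86 with the adipocyte transcripts (rho 0.92, 0.91 without dual 21 and Saline 9). With transcripts of resident macrophages such as Lyve1 and Cd163 it had 0.88 (rho 0.87, 0.90 without Saline 9 and Saline 24). With fibroblast and adventitia transcripts r was 0.84 (rho 0.83, 0.85 without dual 21 and Saline 9), and slopes on that list were not fitted. The single slopes of Cat were 0.46 ± 0.06 on the adipocyte mean (adjusted p = 1.90e-05 in limma), 0.64 ± 0.09 on the resident macrophage mean (1.26e-05) and -0.56 ± 0.14 on the endothelial mean (0.00487). Blvrb had 0.13 ± 0.05 on the adipocyte mean (0.0431), 0.19 ± 0.06 on the resident macrophage mean (0.0261) and -0.24 ± 0.07 on the endothelial mean (0.0104). Txnrd1 had -0.18 ± 0.06 on the adipocyte mean (0.0231). By direction, 18.6% of all genes were called higher and 20.3% lower on the adipocyte mean, 18.9% and 20.8% on the resident macrophage mean, and 13.8% and 14.5% on the endothelial mean. In the fit with 3 list means Blvrb had no called slope. The resident macrophage transcripts did not move with the macrophage and monocyte list (r = -0.34), whereas transcripts of plaque foam cells did (r = 0.93). On the foam cell mean, Hmox1 (0.54 ± 0.10, adjusted p = 0.00131) and Txnrd1 (0.34 ± 0.07, 0.00262) were called higher and Cat (-0.44 ± 0.15, 0.0480) lower, where 17.0% of all genes were called, 8.32% higher and 8.63% lower.

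Nqo1 had its highest r with the erythroid and platelet transcripts (0.54, permutation p = 0.0153) and the endothelial transcripts (0.48, permutation p = 0.0324), and neither slope was called (adjusted p = 0.429 and 0.0789 in limma). For Hmox1, whose substrate is the heme of red cells, r with the erythroid and platelet transcripts was 0.01, and 0 of 10 members had a called slope on them, against 0.0831% of all genes (0.0653% higher, 0.0178% lower). Slc7a11 had r = 0.72 with T and NK cell transcripts (rho 0.68, 0.86 without HDL 4 and HDL 11), above its 0.60 with macrophage transcripts. Slopes on the T and NK cell list were not fitted. In all, 130 relations of a gene with a cell type list were computed.

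**Figure D4:**
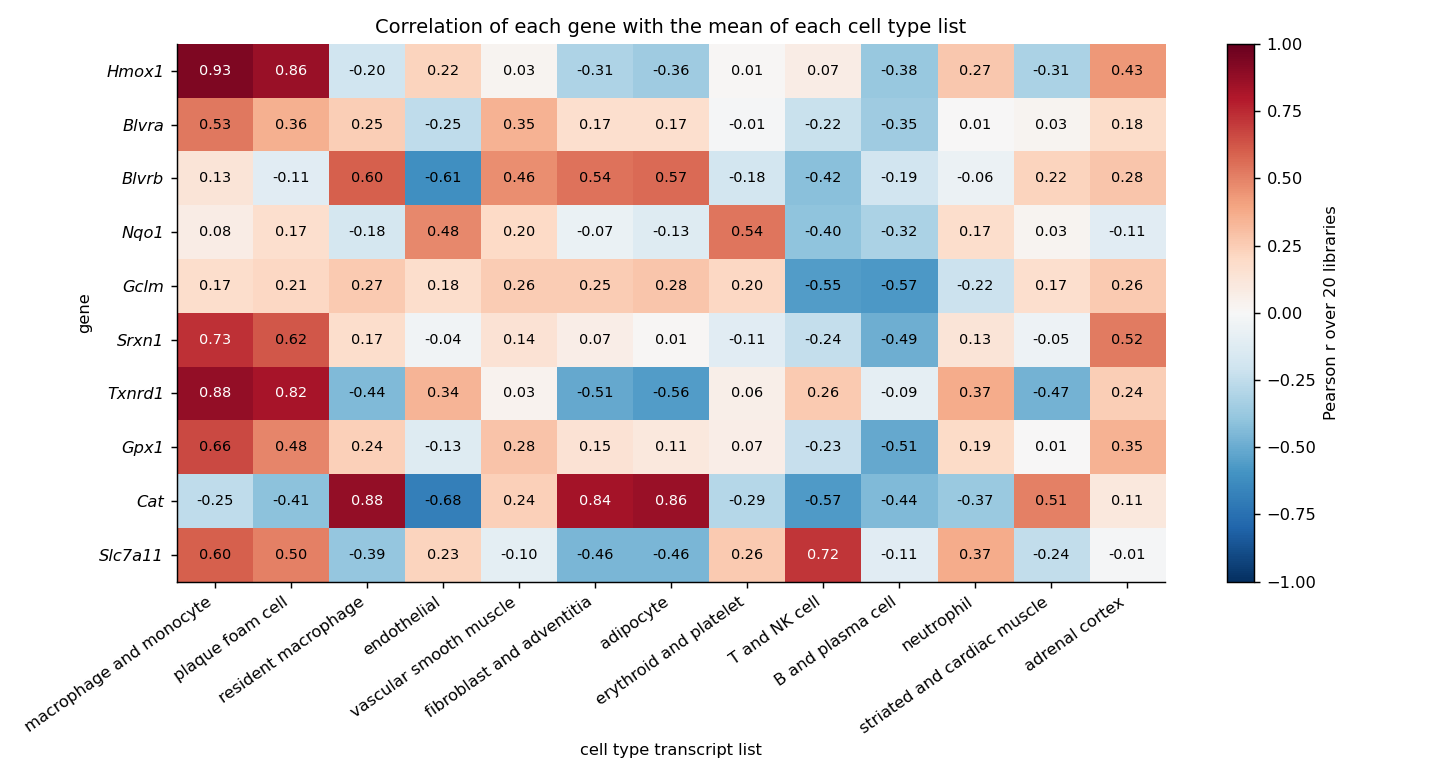
Pearson r over 20 libraries between each gene (rows) and the mean log2 value of each cell type list (columns), from -1 (blue) to 1 (red). Hmox1 (0.93) and Txnrd1 (0.88) are highest with macrophage and monocyte transcripts and Slc7a11 with T and NK cell transcripts (0.72). Cat is highest with resident macrophage (0.88), adipocyte (0.86) and fibroblast and adventitia (0.84) transcripts.

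Among the members, part of the set varied together. Of 45 pairs, 6 had r above 0.7 and 7 had r under 0, with a median of 0.32. The closest pairs were Blvra with Gpx1 (r = 0.88), Hmox1 with Txnrd1 (0.87), Hmox1 with Srxn1 (0.84), Srxn1 with Gpx1 (0.82), Hmox1 with Gpx1 (0.75) and Blvra with Blvrb (0.73). With the macrophage mean removed from both genes, r was 0.83 for Blvra with Gpx1, 0.79 for Blvra with Blvrb, 0.66 for both Hmox1 with Srxn1 and Srxn1 with Gpx1, 0.48 for Hmox1 with Gpx1 and 0.31 for Hmox1 with Txnrd1. In fits over all genes with Hmox1 as the covariate, Srxn1 (adjusted p = 0.00332 in limma), Txnrd1 (0.000637) and Gpx1 (0.0119) were called, where 2.62% of all genes were. With Blvra as the covariate 0.00594% of all genes and none of the members were called, and the Gpx1 slope had an adjusted p of 0.0650. The other way round, Blvra was called with Gpx1 as the covariate (adjusted p = 0.0197 in limma, 0.374% of all genes called) and with Blvrb as the covariate (0.0377, 13.8% of all genes called).

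**Figure D5:**
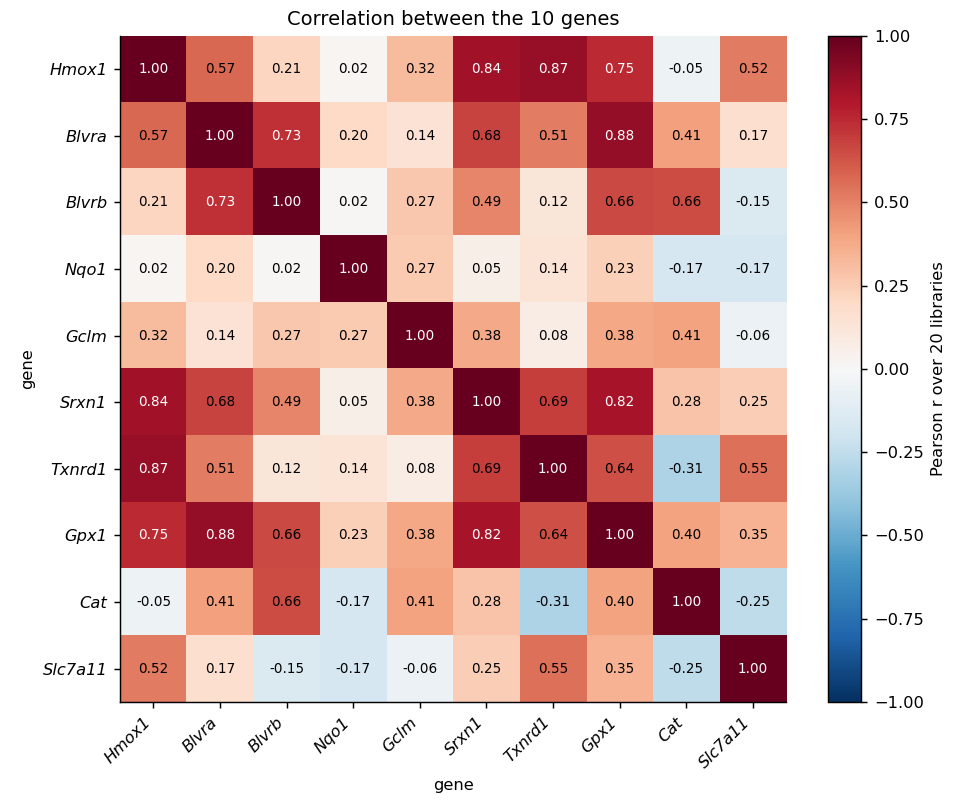
Pearson r over 20 libraries between each pair of the 10 genes, from -1 (blue) to 1 (red). Hmox1, Srxn1, Txnrd1, Gpx1 and Blvra form the red block, with 0.88 for Blvra and Gpx1, and Cat has r under 0 with Hmox1, Nqo1, Txnrd1 and Slc7a11.

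Of 14449 other genes with a mean FPKM of at least 1, those with the most similar pattern over the 20 libraries were named by their Pearson r. Hmox1 was nearest to Atp6v1b2, a subunit of the vacuolar proton pump (0.95), C3ar1, the receptor of complement C3a (0.94), and Sdcbp (0.94). Txnrd1 was nearest to Rnf149 (0.93), Atp6v0b (0.92) and Cndp2 (0.92), Srxn1 to Surf4 (0.90), Canx (0.89) and Atp6v1e1 (0.89), and Gpx1 to Atp6v1e1 (0.93), Msrb1 (0.93) and Atp6v1g1 (0.93). Subunits of the vacuolar proton pump were among the nearest genes of Hmox1, Txnrd1, Srxn1, Gpx1 and, with Atp6v1g1 (0.86), Blvra, whose nearest was Gpx1 itself (0.88), with Msrb1 (0.86). Cat was nearest to Vwa8 (0.98), Ogdh (0.98) and Gpt2 (0.97). Blvrb was nearest to Ybx1 (0.87), Ppia (0.86) and Mrpl54 (0.86), and Nqo1 to Kank1 (0.79), Anxa7 (0.78) and Wwtr1 (0.78). Gclm had the loosest neighbours, 1810037I17Rik (0.77), Mtmr2 (0.77) and Serinc1 (0.74). Slc7a11 was nearest to Dntt (0.91), which encodes a polymerase of developing lymphocytes, and to the unnamed transcripts Gm37298 (0.92) and Gm37534 (0.91).

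Among the other genes of heme and iron handling, 24 were tested and none changed in the group comparisons. In HDL against saline 7 had a higher and 17 a lower mean, with a median log2 difference of -0.39. Tfrc, the transferrin receptor, averaged 7.61 ± 3.12 FPKM in the HDL group and 30.3 ± 28.3 FPKM in the saline group (SD, n = 4 each), and its log2 difference was -1.64 ± 0.68 (adjusted p = 1.00 in limma). The ferritin heavy chain gene Fth1 averaged 938 ± 290 FPKM in the HDL group and 2128 ± 1418 FPKM in the saline group, a difference of -1.04 ± 0.48. The hemopexin receptor Lrp1 differed by -1.05 ± 0.50 and the heme transporter Slc48a1 by -0.64 ± 0.32. In dual against HDL 21 of 24 had a higher mean, with a median of 0.53.

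On the macrophage mean 6 of these 24 were called, all higher, against 4.13% of all genes called higher and 0.576% lower. They were the phagosomal iron transporter Slc11a1 (1.36 ± 0.13, adjusted p = 5.45e-06 in limma), Tfrc (1.24 ± 0.22), the iron exporter Slc40a1 (1.23 ± 0.22), the ferritin light chain gene Ftl1 (1.16 ± 0.12), Fth1 (0.92 ± 0.14) and Hmox2, the constitutive heme oxygenase (0.39 ± 0.10). Tfrc and Hmox2 were named here after their slopes were seen. Slopes of Slc11a1 and Slc40a1 on the resident macrophage mean were negative, at -0.37 ± 0.14 and -0.44 ± 0.14 (adjusted p = 0.0433 and 0.0150 in limma). On the resident macrophage mean 7 of the 24 were called higher and 2 lower, with a median slope of 0.01, against 18.9% of all genes called higher and 20.8% lower.

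In the glutathione system, 22 genes were tested, with 8 higher and 14 lower in HDL against saline (median -0.10) and none called. Those with the smallest unadjusted p were Gss, the glutathione synthetase (-0.61 ± 0.36), Gpx7 (0.59 ± 0.43), Gstm1 (-0.57 ± 0.42) and Mgst3 (-0.49 ± 0.46). On the macrophage mean 1 of 22 was called higher and 1 lower, against 4.13% and 0.576% of all genes. Gsr, which regenerates glutathione, was called higher (0.68 ± 0.09, adjusted p = 9.44e-05 in limma) and Gstt1, a glutathione transferase, lower (-0.61 ± 0.16, 0.0359), while Ggt5 (-0.86 ± 0.27) and the secreted peroxidase Gpx3 (-1.79 ± 0.65) were not called. Of 17 genes of thioredoxin, peroxiredoxins and superoxide dismutases, 6 were higher and 11 lower in HDL against saline (median -0.14), among them Txn1 (-0.62 ± 0.33), Prdx1 (-0.66 ± 0.40), Msrb1 (-0.61 ± 0.40) and Prdx2 (-0.47 ± 0.40). Txn1, the thioredoxin that Txnrd1 reduces, was the 1 of 17 called on the macrophage mean, against 4.70% of all genes (0.49 ± 0.13, adjusted p = 0.0381 in limma), beside Prdx1 (0.56 ± 0.17), Msrb1 (0.54 ± 0.18) and the thioredoxin inhibitor Txnip (-0.99 ± 0.29), which were not.

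Of 22 genes of NRF2 regulation and other reported NRF2 targets, 6 were higher and 16 lower in HDL against saline (median -0.25). None was called, with Idh1 at -0.79 ± 0.42, Pgd at -0.51 ± 0.36, Esd at -0.48 ± 0.36 and the BACH1 relative Bach2 at 0.77 ± 0.58. Bach2 averaged 8.41 ± 12.4 FPKM in the HDL group, with an SD above the mean, and 2.40 ± 1.11 FPKM in the saline group. On the macrophage mean 1 of 22 was called, near the 4.70% of all genes: Esd (0.60 ± 0.13, adjusted p = 0.0119 in limma). Nfe2l2, which encodes NRF2, had 0.38 ± 0.12 (0.0858), its partner Mafg 0.34 ± 0.11 (0.0999) and Pgd 0.47 ± 0.16 (0.109). The median slope of the 22 regulators and targets was -0.05, beside 0.02 over all genes. Of 7 genes of oxidant production, Cyba (1.34 ± 0.18, adjusted p = 0.000139 in limma), a subunit of the phagocyte NADPH oxidase, was called higher, and Nox4 (-0.90 ± 0.44) and Ncf4 (0.52 ± 0.26) were not called. In HDL against saline these had 2 higher and 5 lower, with Xdh at -0.79 ± 0.52, Cyba at -0.75 ± 0.68 and Rac2 at -0.33 ± 0.64. In FPKM the mean of Rac2 lay the other way, at 49.9 ± 69.5 in the HDL group and 34.3 ± 20.6 in the saline group (SD).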

How the data were processed

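Per the labels, aortic endothelium was lysed in qiazol, and a Nugen Ovation kit turned the RNA into libraries. Tools named in the submitters' processing notes, without roles, were DESeq2 1.18.1, featureCounts 1.15.29, STAR 2.5.3a, cutadapt 1.16 and FastQC. The build named was GRCm38.p5. The authors deposited variance-stabilized log2 values of 20442 genes, which compress differences of weakly expressed genes, and FPKM of 32081 genes. The strand of counting was not given in the sources used here. Whole reads were recovered from the deposited FPKM and gene lengths (100% of checked values within 0.1 of a whole number) and gave the depth.

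Genes with a mean FPKM of at least 0.5 entered linear models of the deposited log2 values (R 4.3.3, limma 3.58.1), with 5 group means, 15 residual degrees of freedom, a variance trend and Benjamini-Hochberg adjustment over 16848 genes. Slopes used list means as covariates in the same fit. Replicates are separate mice. Tests were 2-sided. The fit was tested on simulated data. Permutation tests used NumPy 2.4.6 in Python 3.11.15, with ranks from SciPy 1.17.1. Alternatives were log2(FPKM + 0.1), log2(FPKM + 1), a mean FPKM of at least 1, no filter, array weights, voom on recovered reads, only the groups compared, other covariates, leaving out each library and, added after the data were seen, leaving out both libraries with adrenal transcripts, library-median centring and a voom slope. The members and lists were chosen with earlier results of these data known. Named genes were the 10 members, up to 4 per pathway list with the smallest p in HDL against saline and on the macrophage slope, and the 3 nearest genes of each member; some genes the rule names are not reported here. Exon overlap was checked for members only. Coordinates are 1-based.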

Additional observations from a re-analysis of the deposited data

Results flagged for a closer look

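A sample far from the other 3 of its group, by its gap over the group's range, was found in 3 of the 50 gene-by-group sets of 4 libraries, where chance gives about 1 in 20. Nqo1 in the HDL group was lowest in HDL 11, at 5.92 on the log2 scale and 1.61 FPKM, with a gap of 0.888 of the range. Txnrd1 in the LNA489 group was highest in LNA489 13, at 11.97 on the log2 scale and 92.8 FPKM, with a gap of 0.887 of the range. That library also had the highest macrophage transcripts of the 20, at 13850 summed FPKM. Txnrd1 in the HDL group was highest in HDL 3, at 10.59 on the log2 scale and 33.2 FPKM, with a gap of 0.914 of the range, and HDL 3 had the highest macrophage transcripts of the HDL group, at 4382 summed FPKM. The part of the macrophage transcripts in these values was not tested.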

How the results depend on the processing

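The count of genes called in the group comparisons, 0, was the same under every alternative run. Member differences and member F-tests under alternatives were counted together, and 1558 were the same. For a difference this meant a move within the spread between replicates, and for an F-test the same call. In 32 a difference moved by more than that spread. The 792 genes called on the macrophage slope became 1822 with log2(FPKM + 0.1), 2856 with the foam cell list and 6687 with the resident macrophage list in its place, and 236 (without LNA489 13) to 1554 (without Saline 24) when 1 library was left out, with 1405 without HDL 11; the causes were not tested. Called genes were split 695 higher and 97 lower, and 1402 to 1454 with the foam cell list, 3190 to 3497 with the resident list, 959 to 595 without Saline 24 and 957 to 448 without HDL 11. With the resident list the Hmox1 slope turned to -0.16, Txnrd1 to -0.20 and Cat to 0.64. With log2(FPKM + 0.1) the median over genes tested was -0.47 in LNA92a against HDL and 0.59 in the non-additive contrast. No paired analysis was possible because animal numbers differ between groups. Depth limits Nqo1 and Slc7a11, at 36 reads in their lowest libraries.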
